A study of Arabidopsis thaliana with 20 samples.

Results

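The genes described here encode 4 subunits of the photosynthetic light reactions: LHB1B2 (LHCB1.5, AT2G34420), PSAN (AT5G64040), PSBY (AT1G67740) and PSBW (AT2G30570). They were taken by name from the 691 genes that had a probe of their own among the 3439 probes of the array, and each was measured by 1 probe (numbers 2665, 85, 2030 and 3529). RNA came from wild-type Arabidopsis thaliana of the ecotype Columbia 0 kept for the last 96 h at 0.003% CO2 by volume, called low CO2 here (10 samples, titled 4d), and from plants of the same ecotype at the normal CO2 level (10 samples, titled 0d). Low CO2 and time changed together, so their effects cannot be told apart. The labels name no tissue, plant age, light level or number of plants per sample. Fewer cells with chloroplasts and less RNA of a gene per cell cannot be told apart in such total RNA.

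In the thylakoid membrane, light is collected by antenna proteins that carry chlorophyll a and b and is passed to the reaction centres of photosystem II, which draws electrons from water, and photosystem I, which passes them on to ferredoxin. CO2 fixation consumes the ATP and reducing power that these complexes supply. The core reaction centre proteins are encoded in the plastid, while the antenna proteins and many of the smaller subunits, including the products of all 4 genes here, are encoded in the nucleus and imported. LHB1B2 is one of several nearly identical LHCB1 genes for the main antenna protein of photosystem II, PSAN is a subunit on the lumenal side of photosystem I, where plastocyanin docks, and PSBY and PSBW are small membrane subunits of photosystem II.

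The values are array intensities, assumed to be on a linear scale. They are given below as deposited and as log2 signal relative to the median of the sample's column of values. Column totals were 3604 to 3797 in low CO2 and 3495 to 3749 in normal CO2. Column medians on the log2 scale ran from -1.35 to -1.05 in low CO2 and from -1.59 to -0.77 in normal CO2, where columns 1 and 2 had the highest. All 20 columns resembled the column next in number more than any other of their group, in how they departed from the group mean. Columns 1 and 2 of a group were therefore averaged as pair A, 3 and 4 as pair B, 5 and 6 as pair C, 7 and 8 as pair D, and 9 and 10 as pair E, which left n = 5 per group. Separate plants are not named in the labels, so the p-values measure the spread between these samples only, and that spread may be technical. None of the 4 genes had a value of 0 in any column, and all 4 entered the test. Levels of different probes were not compared with each other.

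The comparison asked whether transcripts of photosystem and antenna proteins differed after 4 days at low CO2. The LHB1B2 signal fell 6.86-fold (95% interval 4.49 to 10.5) and was the 1 of the 4 genes that passed the test. All 4 genes had a log2 change below 0, as did 48.7% of all 3277 tested probes, and the median change was -0.97 for the 4 genes and 0.0105 for all tested probes. Over all tested probes, 2.11% passed in either direction and 1.74% as lower, and over the tested probes with 1 gene 0.461%. A probe passed where its adjusted p in limma, after Benjamini-Hochberg adjustment over all 3277 probes, was under 0.05.

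**Figure D1:**
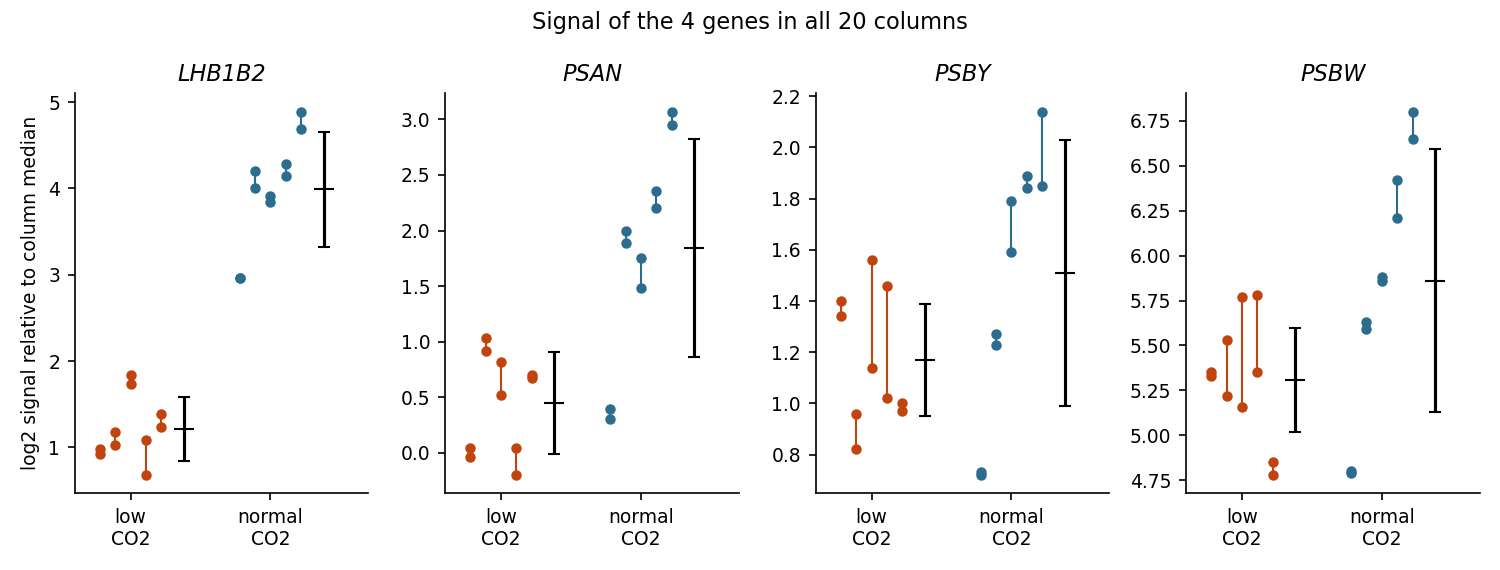
Log2 signal relative to the column median (vertical axis, a separate scale for each gene) in low CO2 and normal CO2. Each point is 1 column, a line joins neighbouring columns, and the black bar is the mean ± SD of the 5 averaged pairs; the groups are apart for LHB1B2 and overlap for PSAN, PSBY and PSBW, where normal CO2 pair A lies lowest of its group.

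For the antenna gene LHB1B2, deposited intensities in low CO2 ran from 0.777 to 1.41 with a median of 1.04, against 4.55 to 9.79 with a median of 7.45 in normal CO2. The groups did not overlap: the brightest low CO2 column was still below the dimmest of the normal CO2 columns. The averaged pairs of low CO2 had log2 levels of 0.95, 1.10, 1.79, 0.89 and 1.31, against 2.96, 4.10, 3.87, 4.22 and 4.79 in normal CO2. No low CO2 pair reached the lowest of normal CO2, a full separation downward that 3.29% of the 3135 probes with a value in all 10 pairs showed. Means were 1.21 ± 0.37 in low CO2 and 3.99 ± 0.67 in normal CO2 (SD, n = 5 each). In log2 terms the change was -2.78 ± 0.29 (SE), with an adjusted p in limma of 0.000361, the lowest of the 3277 probes. Normal CO2 pair A had the lowest level of its group, and without it the change was -3.04 (adjusted p in limma 8.63e-06). Because the LHCB1 genes are nearly identical, the probe may also have read transcripts of the others, which these values cannot separate from LHB1B2.

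For PSAN, the photosystem I subunit, deposited intensities in low CO2 ran from 0.411 to 0.972 with a median of 0.627, against 0.722 to 2.78 with a median of 1.79 in normal CO2. The overlap came from normal CO2 pair A alone, whose intensities of 0.72 and 0.77 lay within the low CO2 range. The other 4 normal CO2 pairs lay above every low CO2 pair, at log2 levels of 1.94, 1.61, 2.28 and 3.01 against at most 0.97 in low CO2. Means were 0.45 ± 0.46 in low CO2 and 1.84 ± 0.98 in normal CO2 (SD, n = 5 each). The log2 change was -1.39 ± 0.38 (SE), 2.62-fold, with a 95% interval of -2.21 to -0.57 and an adjusted p in limma of 0.0835, so PSAN did not pass. Without normal CO2 pair A the log2 change was -1.76 and PSAN passed (adjusted p in limma 0.0023), while without normal CO2 pair E, the highest, it was -1.10 and did not (0.161). PSAN also passed after quantile normalization (0.0433), cyclic loess (0.0423) and with no centring of the columns (0.021).

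For PSBY, which is made as a precursor and cut into a pair of small photosystem II peptides, deposited intensities in low CO2 ran from 0.837 to 1.34 with a median of 0.944, against 0.967 to 1.66 with a median of 1.33 in normal CO2. The groups overlapped: on the deposited scale normal CO2 pair A, at 0.97 in both columns, lay inside the low CO2 range. After centring, at a log2 level of 0.73, it lay below every low CO2 pair (0.89 to 1.37). Above every low CO2 pair lay 3 of the 5 normal CO2 pairs. Log2 levels averaged 1.17 ± 0.22 in low CO2 and 1.51 ± 0.52 in normal CO2 (SD, n = 5 each). The log2 change of -0.34 ± 0.22 (SE) did not pass (adjusted p in limma 0.463). Its 95% interval, from -0.82 to 0.14, reaches a 1.77-fold lower signal.

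For PSBW, a small subunit of photosystem II that is known to stabilise its complexes with the antenna, deposited intensities in low CO2 ran from 12.4 to 26 with a median of 19.4, against 16.2 to 36.9 with a median of 28.2 in normal CO2. Single columns of the groups overlapped, while among averaged pairs the overlap came only from normal CO2 pair A. At a log2 level of 4.79, that pair lay below every low CO2 pair, the lowest of which was at 4.82. The other 4 normal CO2 pairs lay above every low CO2 pair, at log2 levels of 5.61 to 6.72 against at most 5.56. The highest PSBW value was below 100, the highest value in the deposited table, and whether 100 is a limit of detection is not stated. Log2 levels averaged 5.31 ± 0.29 in low CO2 and 5.86 ± 0.73 in normal CO2 (SD, n = 5 each). The log2 change of -0.55 ± 0.38 (SE) did not pass (adjusted p in limma 0.478), with a 95% interval of -1.35 to 0.25. Without normal CO2 pair A it was -0.82 (adjusted p in limma 0.168), and without normal CO2 pair E, the highest, it was -0.33 (0.678).

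**Figure D2:**
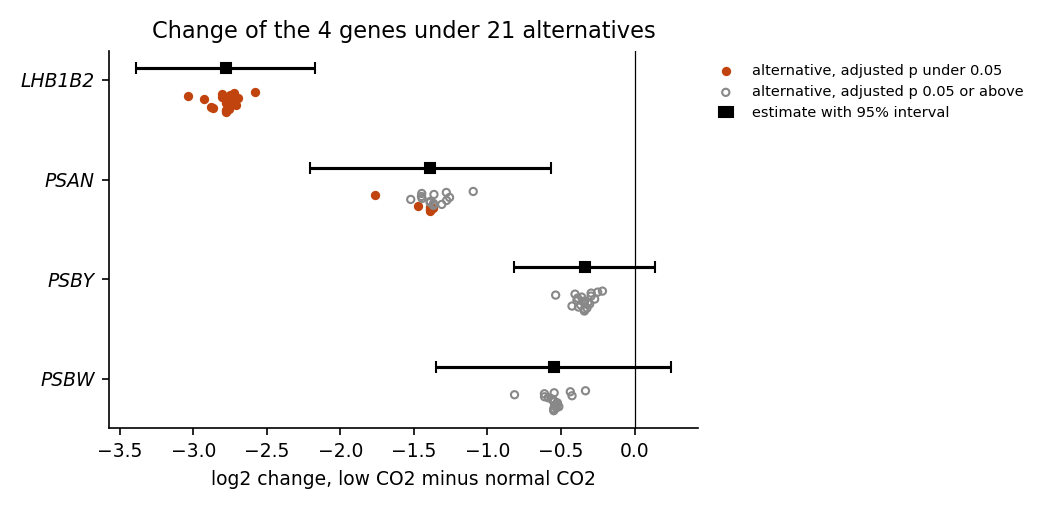
Log2 change, low CO2 minus normal CO2, for each gene (horizontal axis). Black squares and bars are the estimate with its 95% interval, and the points under them are 21 alternative settings, filled where the adjusted p in limma was under 0.05: all 21 for LHB1B2, 7 for PSAN and none for PSBY or PSBW.

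All 4 genes kept a negative change in the 21 alternatives run. LHB1B2 passed in all 21, with log2 changes of -3.04 to -2.58 and a highest adjusted p in limma of 0.00463. PSAN passed in 7 of 21, with changes of -1.76 to -1.10, and missed the threshold in the other 14, up to an adjusted p in limma of 0.197. PSBY (-0.54 to -0.22) and PSBW (-0.82 to -0.33) passed in none.

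The signals of the 4 genes did not change equally. The difference between 2 genes in the log2 signal of the same columns does not depend on how the columns were centred on their medians, and 6 such differences were compared between the groups with an exact two-sided permutation test over all splits of the 10 averaged pairs into 5 and 5. The LHB1B2 signal changed more than that of each other gene. Its log2 change minus that of PSAN was -1.39 ± 0.23 (SE), minus that of PSBY -2.44 ± 0.23 and minus that of PSBW -2.23 ± 0.24. In these 3 differences the values of low CO2 were all below those of normal CO2. The exact p was 0.00794, the smallest that these splits can give (adjusted 0.0159 over the 6 differences). These are changes of probe signal, and the background correction is not stated. Median deposited intensities in low CO2 were 1.04 for LHB1B2, 0.627 for PSAN, 0.944 for PSBY and 19.4 for PSBW. Whether the level of a probe affected the size of its change was not tested.

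The log2 change of PSAN minus that of PSBY was -1.05 ± 0.38 (SE), and minus that of PSBW -0.84 ± 0.32, each with an adjusted p of 0.0476 in the exact permutation test. In both, 3 of the 5 low CO2 values were below all of normal CO2. Both calls were lost without low CO2 pair A, C or D, and without normal CO2 pair B, C, D or E, with exact adjusted p-values of up to 0.105. The log2 change of PSBY minus that of PSBW was 0.21 ± 0.16 (SE) and did not pass (exact adjusted p = 0.246).

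**Figure D3:**
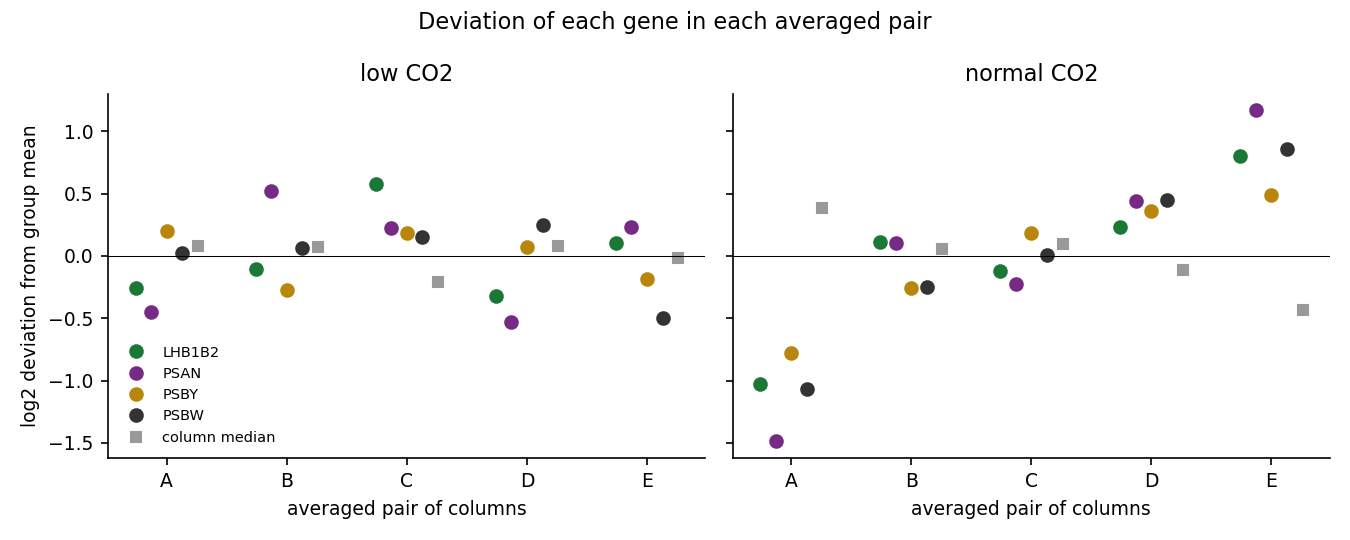
Log2 deviation of each gene from its group mean (vertical axis) in the 5 averaged pairs of low CO2 and of normal CO2 (horizontal axis, A to E). Grey squares are the log2 column median minus its group mean. After centring, all 4 genes in normal CO2 are lowest in pair A, where the column median is highest, and highest in pair E, where it is lowest; without centring PSBY is highest in pair C.

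Within normal CO2, part of the order of the pairs followed the column median that was subtracted. After centring, all 4 genes were lowest in pair A, where the log2 column median of -0.77 was the highest, and all 4 were highest in pair E, where the column median of -1.59 was the lowest. Without centring all 4 were still lowest in pair A, and LHB1B2, PSAN and PSBW highest in pair E, but PSBY was highest in pair C, at 0.64 against 0.41 in pair E. In low CO2 the centred levels shared no such order: LHB1B2 was highest in pair C, PSAN in pair B, PSBY in pair A, and PSBW in pair D. The range of the centred averaged pairs was wider in normal CO2 for all 4 genes. It was 0.91 in low CO2 and 1.83 in normal CO2 on the log2 scale for LHB1B2, 1.05 and 2.66 for PSAN, 0.48 and 1.27 for PSBY, and 0.75 and 1.93 for PSBW. Without centring the ranges in low and normal CO2 were 0.62 and 1.01 for LHB1B2, 1.05 and 1.84 for PSAN, 0.50 and 0.68 for PSBY, and 0.85 and 1.11 for PSBW, so the groups differed less in range for all 4 genes. Neighbouring columns of LHB1B2 were at most 0.41 apart in low CO2 and 0.198 in normal CO2, and those of PSBW at most 0.611 and 0.209.

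Correlations between the genes were taken over the 10 averaged pairs after each group's mean was removed, with exact two-sided permutation within groups and adjustment over the 6 relations. LHB1B2 with PSAN had r = 0.91 (exact adjusted p = 0.016) and rho = 0.82 (exact adjusted p = 0.0542). Without normal CO2 pairs A and E, r was 0.62. PSBY with PSBW had r = 0.91 (exact adjusted p = 0.016), rho = 0.71 (exact adjusted p = 0.201), and r = 0.90 without low CO2 pair B and normal CO2 pair A. The pairs left out were those farthest from the median deviation of the first gene of each relation. For PSBY with PSBW normal CO2 pair E thus stayed in, and r without normal CO2 pairs A and E was not computed. The other 4 relations had r of 0.63 to 0.75 and did not pass, and without normal CO2 pairs A and E they had r of -0.30 to 0.13, so they rest on those samples.

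Both calls held with columns centred within the classes of probe numbers described below (r = 0.90 each, exact adjusted p = 0.019 and 0.0179). Neither held without centring or after quantile normalization. With the columns left as deposited, r was 0.82 for LHB1B2 with PSAN and 0.75 for PSBY with PSBW (exact adjusted p = 0.0802 each). After quantile normalization it was 0.80 (exact adjusted p = 0.0675) and 0.25 (exact adjusted p = 0.475). The other 4 relations had r of 0.13 to 0.51 without centring, including 0.24 for LHB1B2 with PSBY and 0.13 for PSAN with PSBY. Over the 3134 other probes with 10 values, after centring, the median r was 0.01 to 0.04 for each of the 4 genes, and the 95th percentile was 0.82 for LHB1B2, 0.76 for PSAN, 0.81 for PSBY and 0.83 for PSBW. The r of LHB1B2 with PSAN lay at percentile 98.6 of the values of LHB1B2 and 99.3 of those of PSAN, and that of PSBY with PSBW at percentiles 99 and 98.8.

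Profiles were compared after centring with those of the 627 other genes with a probe of their own and 10 values. Most like LHB1B2 was AT1G62250 (r = 0.94), followed by AT5G59250 (r = 0.91). These and the r values below are the highest of 627, and none was computed without centring. The log2 change of AT1G62250 was -1.28 and passed (adjusted p in limma 0.0233), while that of AT5G59250 was 0.77 and did not (0.0877). PSAN was most like AT5G63290 and LHB1B2 (r = 0.91 each), PSBY most like AT2G36480 (r = 0.92) and AT5G11650 (r = 0.91), and PSBW most like AT3G09080 (r = 0.98) and AT2G27290 (r = 0.94). Of these, apart from LHB1B2, none passed the test between the groups. A like profile over samples thus came with estimated changes of either sign, and no rise among them passed.

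The light reactions were otherwise sparsely measured. Of 56 nuclear genes listed for the photosystems, the antenna, electron transport and ATP synthase, 5 had a probe of their own: the 4 genes above and PSB27, which acts in the assembly and repair of photosystem II. PSB27 had log2 levels of 1.51 ± 0.78 in low CO2 and 1.70 ± 0.70 in normal CO2 (SD, n = 5 each), a change of -0.19 ± 0.37 (SE) that did not pass (adjusted p in limma 0.828). By group, 1 of 12 photosystem I genes, 3 of 13 photosystem II genes, 1 of 21 antenna genes and 0 of 10 genes of electron transport and ATP synthase could be tested on a probe of their own, and LHB1B2 was the 1 that passed. A single probe is shared by 3 further genes of the antenna list, so no gene is named from it. Its log2 change of -0.26 ± 0.26 (SE) did not pass (adjusted p in limma 0.636). Another probe is shared by 2 genes, 1 of them in the list for electron transport and ATP synthase, and its change of -0.06 ± 0.14 (SE) did not pass either (0.857).

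**Figure D4:**
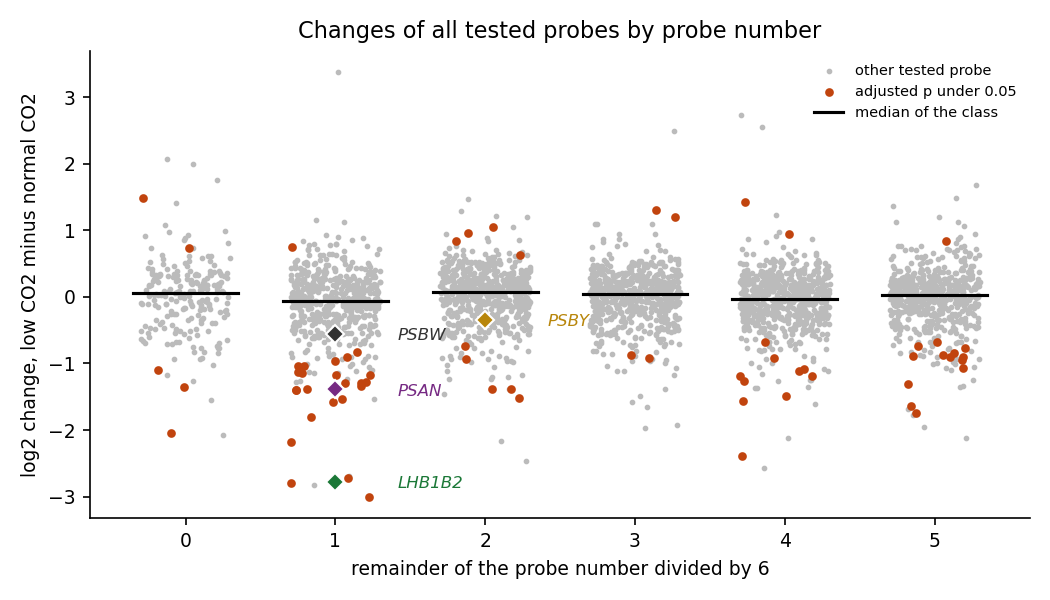
Log2 change, low CO2 minus normal CO2, of the 3277 tested probes (vertical axis) by the remainder of the probe number divided by 6 (horizontal axis; points are spread sideways at random). Orange points passed the test, black lines are class medians and diamonds are the 4 genes: remainder 1 holds LHB1B2, PSAN and PSBW and 24 of the 57 called falls.

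Called falls were not spread evenly over the probe numbers. Probes whose number leaves 1 when divided by 6 held 24 of the 57 called falls, 4.21% of the 570 probes tested there. LHB1B2, PSAN and PSBW belong to them, as does AT1G62250, the gene with the profile most like that of LHB1B2. In the other classes 0.318% to 2.2% of probes were called as lower, 0.787% in that of PSBY. Among the brightest 25% of tested probes, 17 of 179 were called as lower in the class of LHB1B2 and 0 of 146 in that of PSBY. For remainders 0, 3, 4 and 5 these counts were 0 of 30, 0 of 154, 7 of 149 and 6 of 162. Over all tested probes of a class, the median log2 change was -0.06 in the class of LHB1B2 and 0.07 in that of PSBY. With each column centred on the median of the class, the change of LHB1B2 was -2.76 (adjusted p in limma 0.000316) and that of PSAN -1.37 (0.0845), against -2.78 and -1.39 with the column median. The unlisted probe numbered 24 above LHB1B2 (probe 2689) changed by -2.79 ± 0.34 (SE) on the log2 scale, with an adjusted p in limma of 0.000573. The 4 other tested probes numbered 1, 6 or 24 from LHB1B2 had changes of -1.11 to -0.29, and none passed. How probe numbers relate to positions on the array is not known here, and their part in the result was not tested.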

How the data were processed

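The deposited table holds the authors' intensity values, 1 for each probe in each column, which were assumed to be on a linear scale. Neither the labels nor the table state the scaling, the background correction or the type of array. Exact zeros (4.77% to 6.48% of a column) were left out as missing, the remaining values were log2-transformed with nothing added, each column was centred on its median, and neighbouring columns were averaged. That neighbours are repeats of one sample is not stated in the labels. The 3277 probes measured in 3 or more averaged pairs of both groups were tested with limma 3.58.1 (lmFit, then eBayes with a trend; R 4.3.3), a test first tried on simulated data. The number of arrays limits the precision, and the median standard error was 0.23.

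Platform annotation ties 692 of the 3439 probes to 1 gene and 870 to several; 1877 are unlisted. AGI codes came from a RefSeq gene table (TAIR10.1) through gene identifiers. The build of the array is unknown here, so no coordinates are printed, and no sequence was used.

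The genes, the lists, the averaging and the tests were chosen with earlier results of these data known. Named genes were the 4 genes, the 2 genes most like each in profile, and tested genes of the lists. Alternatives were a replicate block, single columns, a random block of neighbours, other normalizations, centring within classes of probe numbers, a pseudocount of 0.0403, a floor for zeros, leaving out the dimmest 25%, eBayes with no trend, and leaving out each averaged pair. Correlations without centring were added after the data were seen.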

Additional observations from a re-analysis of the deposited data

Results flagged for a closer look

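The 5 averaged pairs of each group were screened for a value far from the rest in all named genes, 26 sets of values in all, and 1 was found where chance gives about 1.3. It was in AT3G09080, the gene with the profile most like that of PSBW: low CO2 pair E had a log2 level of 1.43, while its group averaged 1.60 ± 0.10 (SD, n = 5).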

How the results depend on the processing

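The change of LHB1B2 passed in every alternative run for it. With centring within classes of probe numbers, its difference from PSBY was -2.39 (exact adjusted p = 0.0159). PSAN and PSBW share its class, so that setting could not move its differences from them. Because the groups of its 3 differences were fully separated, leaving out 1 averaged pair was a weak check of them. Their exact p stayed at 0.00794 each time. The causes of the moves below were not tested. PSAN, at -1.39, gained a call with a replicate block (-1.39, adjusted p in limma 0.0325), with 20 single columns, which treats neighbours as independent (-1.39, 0.00206), with the random block (-1.39, 0.00697), and with no centring (-1.37, 0.021), quantile normalization (-1.39, 0.0433) or cyclic loess (-1.47, 0.0423). Without 1 averaged pair, PSAN lay between -1.76 and -1.10, PSAN minus PSBY between -1.25 and -0.879, and PSAN minus PSBW between -1.02 and -0.646. The 69 probes past the threshold (12 higher, 57 lower) became 589 (296 higher, 293 lower) with single columns, 186 (76 higher, 110 lower) with the random block, 30 with the floor for zeros and 34 with no trend. Without 1 averaged pair they numbered 25 to 123: low CO2 pairs B and E gave 25 and 36, and normal CO2 pairs A to E gave 123, 37, 25, 26 and 26. After quantile normalization the correlation of PSBW reversed with LHB1B2 (-0.344) and with PSAN (-0.148), neither of which passed before or after. LHB1B2 with PSAN (0.803) and PSBY with PSBW (0.252) lost their calls there, as they did with no centring (0.822 and 0.754). The main fit did not pair samples by replicate number, because no label names a source shared by like-numbered samples. Like-numbered pairs A to E of the 2 groups had correlated deviations of -0.02 to 0.40, over 0.1 in 3 of 5 cases. Of the 10 averaged pairs, 6 were closest to their own letter, so whether the numbers pair the samples is not settled. The replicate block called 89 probes, 62 of them shared with the unblocked fit.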
